A study of Mus musculus with 16 samples.

Results

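Dendritic cells carried 5361 autosomal H3K4me1 summits that lay more than 50 kb from any H3K4me1 summit called in 3T3 fibroblasts. They made up 6.85% of the 78214 autosomal dendritic cell summits (exact binomial 95% interval 6.68 to 7.03%). Members were chosen by position alone: the nearest 3T3 summit on the same chromosome had to be more than 50000 bp away. That distance is therefore a description of the set and no finding about it. The remaining 72853 autosomal dendritic cell summits, all within 50 kb of a 3T3 summit, are called the other summits below. A further 1582 dendritic cell summits on the sex chromosomes and mitochondrial DNA were set aside.

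The series maps candidate enhancers in 16 samples, and 2 of them are used here: H3K4me1 ChIP-seq of dendritic cells and of 3T3 cells, neither of them stimulated. The dendritic cells were grown from mouse bone marrow progenitors that had been infected with a retrovirus carrying a hairpin against JmjD2d, selected in histidinol, and differentiated for 4 days in GM-CSF with SCF and for 4 more in GM-CSF alone. The 3T3 cells are an established mouse fibroblast line kept in standard culture, with no hairpin recorded. Each cell type is 1 library, so cell type, hairpin, culture and library cannot be told apart, and no difference could be tested against replicate error. For the 3T3 sample, one label field gives dendritic cells as the cell type. Its title, description and growth protocol, and the file header, all say 3T3. It was taken to be 3T3. Neither cell type could be checked against marker genes, since no annotation of the files' genome build, mm9, was used.

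H3K4me1 is the monomethylated form of lysine 4 on histone H3, a mark laid down at enhancers and on the flanks of promoters. Enhancers carry much of the difference between cell types, and many of them are marked in one cell type and bare in another. JmjD2d is a histone demethylase acting on methylated H3K9. Dendritic cells take up antigen and present it to T cells, whereas fibroblasts build connective tissue.

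The files give a position of 1 bp and a score for each summit. The score, not named in the header, was taken as the height of the signal at the summit. Scores were whole numbers in all of the dendritic cell list (100%), from 13 to 561. Read totals were not given, so the depth behind a summit is unknown and an absent summit means only that none was called. Intervals cover counting error only and take summits as independent, although neighbouring summits can share 1 marked domain.

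The remote summits stood a median of 111 kb (110623 bp) from the nearest 3T3 summit, with quartiles at 69699 and 210397 bp and a maximum of 3040912 bp. For the other summits the median was 2677 bp. By class of distance, 2412 lay between 50 and 100 kb away, 1531 between 100 and 200 kb, 937 between 200 and 500 kb, and 481 more than 500 kb away. Most of the set therefore sat within 200 kb of the nearest 3T3 mark, with a thin tail reaching megabases.

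Summits at the edge of the distance rule scored between 24 and 85. Just inside it were a summit on chromosome 14 at 62123068 (50023 bp, score 43), one on chromosome 6 at 122889524 (50039 bp, score 85) and one on chromosome 13 at 59798631 (50046 bp, score 54). Just outside it were a summit on chromosome 16 at 19153233 (49986 bp, score 35), one on chromosome 17 at 8614730 (49982 bp, score 24) and one on chromosome 6 at 15413994 (49974 bp, score 50). In the opposite direction, 13125 of 80558 autosomal 3T3 summits (16.3%, 16.04 to 16.6%) lay more than 50 kb from any dendritic cell summit.

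Dendritic cell summits were sparse in the territory remote from 3T3 summits. That territory, all positions more than 50 kb from a 3T3 summit within the span of both lists, came to 952 Mb, or 39.6% of 2406 Mb. It held 5.63 dendritic cell summits per Mb (exact Poisson 95% interval 5.48 to 5.78), against 50.1 per Mb (49.7 to 50.5) in the rest, a ratio of 8.90. The span includes sequence to which short reads cannot be placed, and how much of the remote territory this makes up was not tested. The density was lower in each successive class of distance. It was 150 per Mb within 1 kb of a 3T3 summit, 51.2 from 1 to 5 kb, 36.0 from 5 to 20 kb and 21.4 from 20 to 50 kb. Beyond the rule's distance it was 12.3 per Mb at 50 to 100 kb (11.9 to 12.9), 8.19 at 100 to 200 kb (7.78 to 8.61), 3.70 at 200 to 500 kb (3.47 to 3.95) and 1.52 beyond 500 kb (1.39 to 1.66). The density thus differed within the remote set too, class by class.

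**Figure D1:**
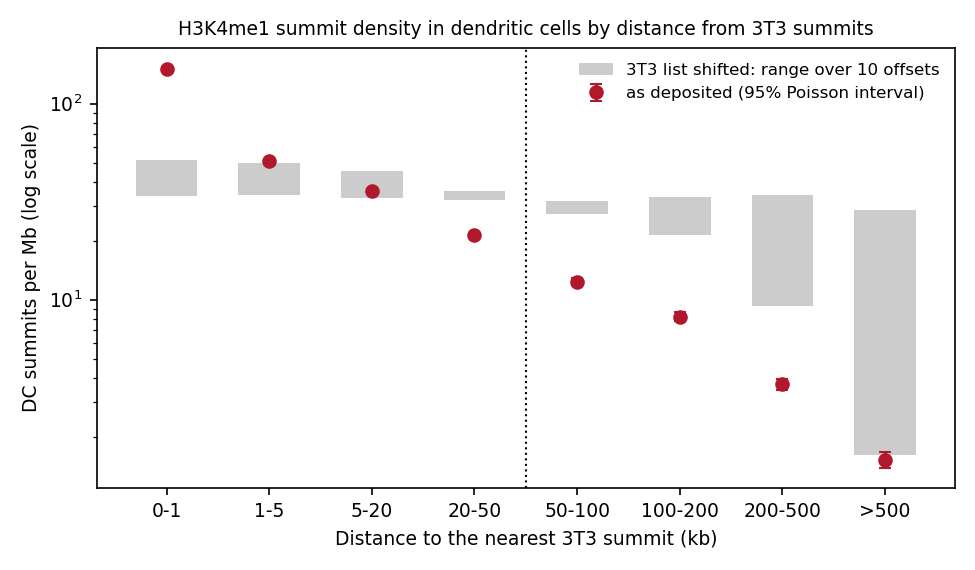
Dendritic cell (DC) summits per Mb (log axis) in classes of distance to the nearest 3T3 summit (kb); points are the deposited lists with 95% Poisson intervals, grey bars the range over 10 shifts of the 3T3 list, and the dotted line marks 50 kb. The points descend from 150 to 1.52 per Mb and lie below the grey bars in every class beyond 20 kb.

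As a positional reference, the 3T3 list was moved along each chromosome by 250 kb, 500 kb, 1 Mb, 2 Mb and 5 Mb in either direction, 10 offsets in all, which keeps the spacing of each list. With shifted lists between 12168 and 29898 dendritic cell summits (15.6 to 38.2%) were remote, against the 5361 (6.85%) observed. The number was larger for each larger offset, from 12168 and 12746 at 250 kb to 28994 and 29898 at 5 Mb. At 5 Mb the density outside was 1.06 to 1.11 times that in the remote territory, against 8.90 for the lists as deposited and 3.36 to 3.55 at 250 kb. After moves of 250 kb the remote territory was thus still clearly the sparser, and after 5 Mb hardly so. These shifts give a description, and no p-value was taken from them.

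The stretches between neighbouring 3T3 summits differed in how many remote summits they held. A stretch must be longer than 100 kb to hold a remote position, and 2981 were. Of these, 1824 (61.2%, 59.4 to 62.9%) held no remote summit, and 986 held no dendritic cell summit at all. The other 1157 held 5333 of the remote summits, and 28 lay beyond the first or last 3T3 summit of a chromosome. In 419 stretches there was a single one, while the 152 stretches with 10 or more held 2651 (49.5%, 48.1 to 50.8%). Stretches with a remote summit had a median length of 259835 bp, against 153686 bp for those without, and so offered more room. Of those without, 1183 were 100 to 200 kb long. How many would be empty under even placement was not computed.

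Long stretches held fewer remote summits per Mb than short ones. For stretches, here and below, the Mb counted are those more than 50 kb from the 3T3 summit at either end. The density was 15.9 per Mb (14.9 to 17.0) in stretches of 100 to 200 kb, 11.3 (10.8 to 11.9) at 200 to 500 kb, 6.39 (6.00 to 6.79) at 500 to 1000 kb, 3.24 (3.00 to 3.50) at 1000 to 2000 kb and 2.31 (2.16 to 2.48) above that. Within stretches of like length, the density still differed with distance. In the 115 stretches over 2000 kb, positions 50 to 100 kb from a 3T3 summit held 9.04 per Mb (7.39 to 10.96), and positions farther in held 2.09 (1.94 to 2.25). In the 809 stretches of 200 to 500 kb, these values were 12.6 (11.8 to 13.4) and 10.1 (9.42 to 10.8). The contrast between rim and interior was therefore larger in the longest stretches than in the shorter ones.

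Some 3T3-free stretches, without the 50 kb at each end, held more remote summits per Mb than the average of the territory within 50 kb of 3T3 summits. Of 1359 stretches over 200 kb, 70 (5.15%, 4.04 to 6.46%) exceeded the 50.1 per Mb of the other summits, and these 70 held 1077 remote summits. The median stretch of this length held 0.780 per Mb. The 50.1 is a mean over all territory within 50 kb of a 3T3 summit. How many pieces of like size there exceed it was not computed. The 10 stretches with the most remote summits together held 437 (8.15%, 7.43 to 8.92%), and 5 of the 10 were above 50.1 per Mb. They were picked by their counts, so the counts describe them and support nothing further.

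The fullest stretch lay on chromosome 12 between 3T3 summits at 114439937 and 117287891 and held 87 remote summits with scores from 16 to 115, median 35. With the stretch divided into 5 equal segments from left to right, 73 lay in the last 2 (33 and 40) and 10 in the middle one. A gap of 763794 bp without a summit separated 114683849 from 115447643. From general knowledge of the mouse map, and not from an annotation of this build, distal chromosome 12 carries the immunoglobulin heavy chain locus Igh, whose gene segments B cells rearrange to make antibody. No summit was assigned to a segment.

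On chromosome 9, between 44774451 and 45468187, there were 40 remote summits, with scores from 16 to 269 and a median of 40. Their density was 67.4 per Mb of the part more than 50 kb from 3T3. This stretch held the highest of all remote summits and 6 summits at or above a score of 79, the 90th percentile of the autosomal list. By the same general knowledge, this part of chromosome 9 carries Il10ra, which encodes a receptor chain for the anti-inflammatory cytokine IL-10. It also carries Cd3g, Cd3d and Cd3e, which encode signalling chains of the T cell receptor. RefSeq's GRCm38 table, used for names and order only, lists the 3 Cd3 genes side by side. Which of them, if any, the summits mark was not determined.

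Chromosome 3 held 2 of the 10. The stretch from 152621658 to 153573690 had 47 remote summits at 55.2 per Mb, scores 16 to 119 with a median of 32, and 17 of them in its middle segment. General knowledge places St6galnac3, a sialyltransferase gene, in this part. The stretch from 14666935 to 16056909 had 46 at 35.7 per Mb, scores 17 to 104 with a median of 31, spread over all 5 segments (6 to 12 in each). Genes of the signal regulatory protein beta family, Sirpb1a, Sirpb1b and Sirpb1c, which encode receptors of myeloid cells, lie in that region by the same knowledge. Again no summit was matched to a gene.

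The stretch of chromosome 16 from 75766053 to 76149897 was the most crowded of the 10, with 32 remote summits at 113 per Mb and scores from 20 to 112. It contained the longest chain: 21 summits in 101 kb (101496 bp) from 75831991 to 75933487, each within 10 kb of the next, with a median score of 35. Samsn1, an adaptor gene of blood cells, lies in this part of the chromosome by general knowledge. On chromosome 4, from 102296914 to 102785600, 35 remote summits stood at 90.05 per Mb with scores of 17 to 64. In that stretch no summit reached 79, and none did in those of chromosomes 1 and 2 described below, against 4.74% of all remote summits. The median score of the chromosome 4 stretch was 32, against 31 for all remote summits.

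The other 4 differed in layout. On chromosome 7, from 129305144 to 130095772, 36 remote summits (scores 19 to 122, median 40.5) lay mostly in the second segment, which held 23. On chromosome 11, from 9018971 to 11671978, the 47 (scores 16 to 123, median 34) formed 2 groups at the ends, 22 in the first segment and 18 in the last, with 979073 bp between 10383639 and 11362712 empty. On chromosome 1, from 97211326 to 99546886, 33 of 37 lay in the first segment, with scores of 18 to 67 over the stretch. On chromosome 2, in the 5313652 bp from 85012670 to 90326322, there was 1 summit in the first segment, then 3424018 bp without any, and 29 in the last 2 segments. In these 4 stretches the remote summits thus left long parts of the 3T3-free length bare. No gene was named for these 4 or for the stretch of chromosome 4. The loci named for the other stretches were picked without a background, so they do not describe the genes near remote summits at large.

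**Figure D2:**
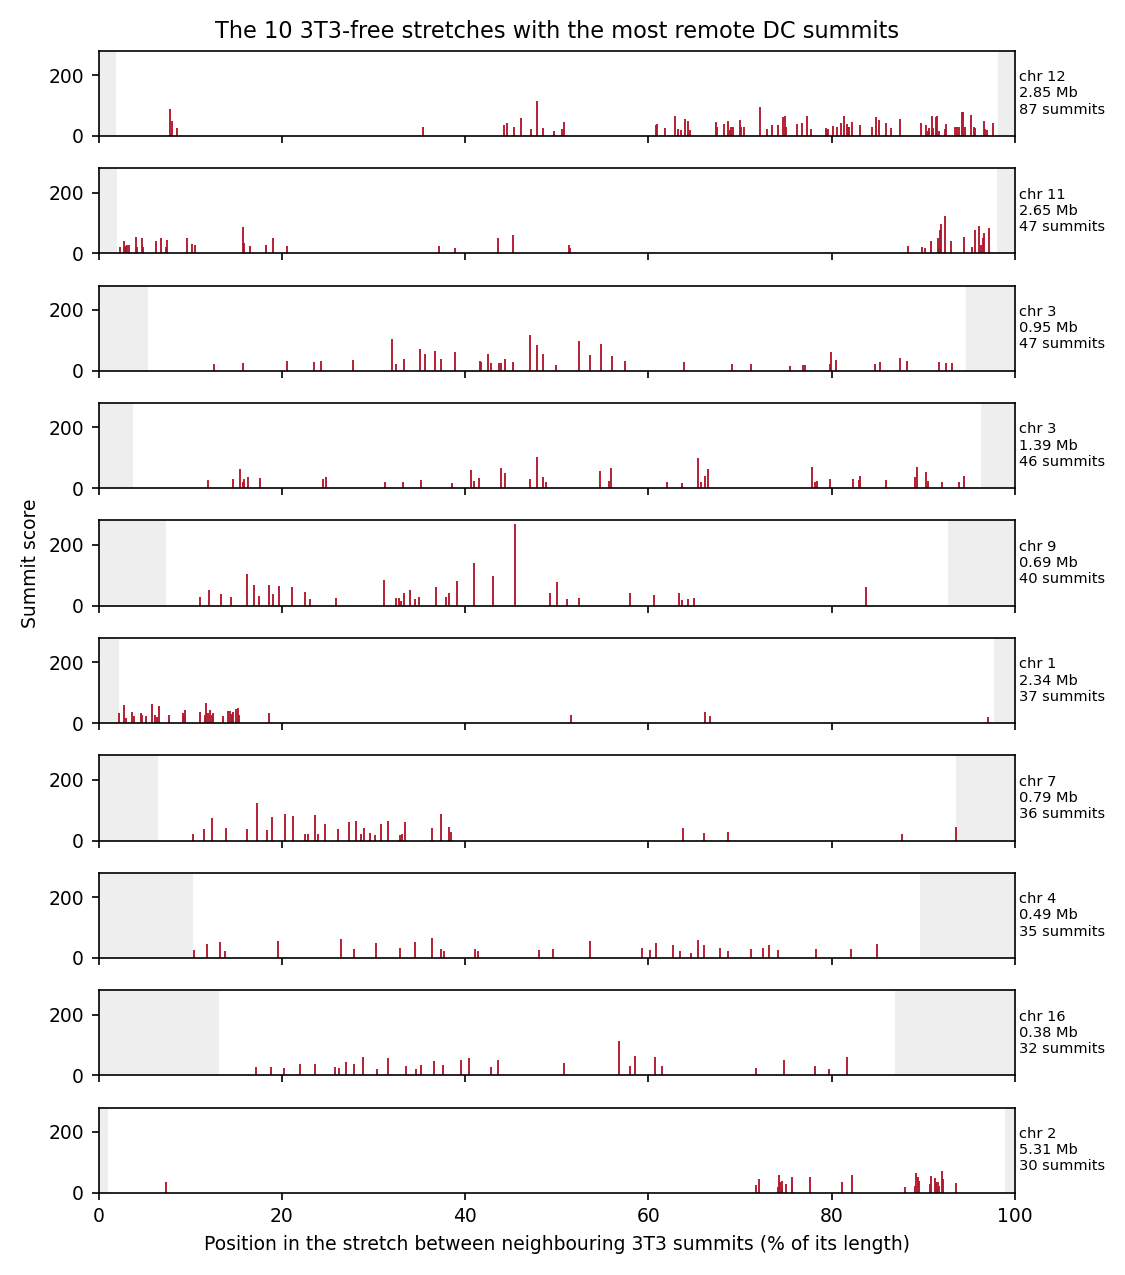
Position (as a percentage of stretch length) and score (line height) of each remote dendritic cell summit in the 10 stretches between neighbouring 3T3 summits that hold the most of them, with the length and count at the right; grey marks the 50 kb next to a 3T3 summit, where no member can lie. Summits crowd to one side on chromosomes 12 and 1, to both ends on chromosome 11, and the line reaching 269 is on chromosome 9.

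The 5 longest 3T3-free stretches held from 1 to 23 remote summits. The longest, on chromosome 15 from 12819477 to 20567174 (7747697 bp), held 14 remote summits with a median score of 26. That of chromosome 7 from 39057051 to 46705786 held 1, which scored 19. Chromosome 3 had 5 in the stretch from 41844805 to 48898534, and chromosome 1 had 23 from 101213797 to 107460017 and 9 from 24684654 to 30647601. Their densities ran from 0.132 to 3.74 per Mb, all under the 5.63 of the remote territory as a whole, and that of the stretch with 23 was above the 2.31 of all stretches over 2000 kb.

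The 3T3 summits bordering stretches with a remote summit numbered 2184 and had a median score of 27 (quartiles 22 and 36), against 34 (25 and 51) for the 75284 3T3 summits that bordered no stretch over 100 kb. A dendritic cell summit lay within 1000 bp of 32.6% of them (30.6 to 34.6%), against 30.3% (29.9 to 30.6%) of those 75284. Where the bordered stretches held no remote summit, the share was 19.7% (18.3 to 21.1%) of 3090, with the same median score of 27. Bordering 3T3 summits were thus low in either case, and more often marked in dendritic cells where the stretch beyond held remote summits.

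Remote summits stood farther apart than the other summits. The nearest other dendritic cell summit lay at a median of 6934 bp (quartiles 3791 and 18311), against 4992 bp (3153 and 8364) for the other summits. Of the remote summits 3296 (61.5%, 60.2 to 62.8%) had one within 10 kb, against 80.9% (80.6 to 81.2%) of the others and 79.6% of all autosomal summits. None within 50 kb was the case for 623 (11.6%, 10.8 to 12.5%), against 1.58% (1.49 to 1.67%) of the others and 2.26% of all. The number of dendritic cell summits within 100 kb on either side had a median of 9 (quartiles 4 and 14) for remote summits and 16 (11 and 20) for the others. The set therefore held both crowded and lone summits, with 11.6% alone for 50 kb each way.

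Isolation differed with distance from 3T3. The share with no neighbour within 50 kb was 3.07% (2.67 to 3.51%) at 20 to 50 kb from 3T3, 8.08% (7.03 to 9.24%) at 50 to 100 kb, 10.1% (8.66 to 11.8%) at 100 to 200 kb, 18.8% (16.3 to 21.4%) at 200 to 500 kb and 20.2% (16.7 to 24.03%) beyond. Of the 5 remote summits farthest from 3T3, the first 2 had no neighbour for megabases and the other 3 stood close together. The farthest, on chromosome 1 at 104254709, lay 3040912 bp from 3T3 and 2277315 bp from its nearest dendritic cell neighbour, and scored 19. A summit of chromosome 15 at 47354027 followed, 2580548 bp from 3T3, with its nearest neighbour at 2583987 bp and a score of 42. The remaining 3 of the 5 farthest were a group on chromosome 1 at 28088473, 28105525 and 28109614, with scores of 34, 25 and 39 and neighbours at 17052, 4089 and 4089 bp.

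With the 3T3 list shifted, the summits that became remote were spaced more like the whole list. Their median distance to a neighbour was 5086 to 5404 bp over the 10 offsets, against the observed 6934. Between 73.9 and 79.3% had a neighbour within 10 kb, against 61.5%, and 2.34 to 5.31% had none within 50 kb, against 11.6%. The observed values lay outside these ranges, nearest to those of the 250 kb offsets.

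Chaining remote summits no more than 10 kb apart gave 3265 chains, of which 2167 were single summits (40.4% of the members, 39.1 to 41.8%). Chains of 2 to 4 held 2465 (46.0%, 44.6 to 47.3%), chains of 5 to 9 held 649 (12.1%, 11.2 to 13.01%), and 6 chains of 10 or more held 80 (1.49%, 1.19 to 1.85%). In all, 13.6% (12.7 to 14.5%) were in chains of 5 or more. Over all autosomal dendritic cell summits this share was 36.4% (36.1 to 36.8%), and for shifted lists, whose chains are likewise broken off at the 50 kb rim, it was 26.2 to 34.8%. The share depended on the chain distance, at 1.31% for 5 kb and 33.8% for 20 kb, where all autosomal summits gave 4.11 and 73.8% and shifted lists 2.66 to 3.98% and 55.3 to 70.5%. It was thus the smaller in the remote set at all 3 distances. Among dendritic cell summits at or above the median score it was 2.29%, with no value for comparison computed.

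After the chain on chromosome 16, the longest were 15 summits on chromosome 2 from 78971670 to 79054627 (scores 18 to 101, median 35), 13 on chromosome 14 from 62565608 to 62625246 (20 to 88, median 39), 11 on chromosome 6 from 16807144 to 16856358 (24 to 96, median 31) and 10 on chromosome 7 from 31596856 to 31643434 (22 to 89, median 42.5). Scores differed within a chain. Over the 114 chains of 5 or more, the median of the highest score was 67 and that of the lowest 21, with a median ratio of 3.13. In 41 of the 114 (36.0%, 27.2 to 45.5%) at least 1 summit reached 79. The highest and lowest of 5 or more scores lie apart in any grouping. No like values were computed for other groups of summits, so these describe the chains only. Single summits had a median score of 29 and those in chains of 2 to 4 one of 32. In chains of 5 to 9 it was 34, and in the 6 chains of 10 or more it was 35.5.

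**Figure D3:**
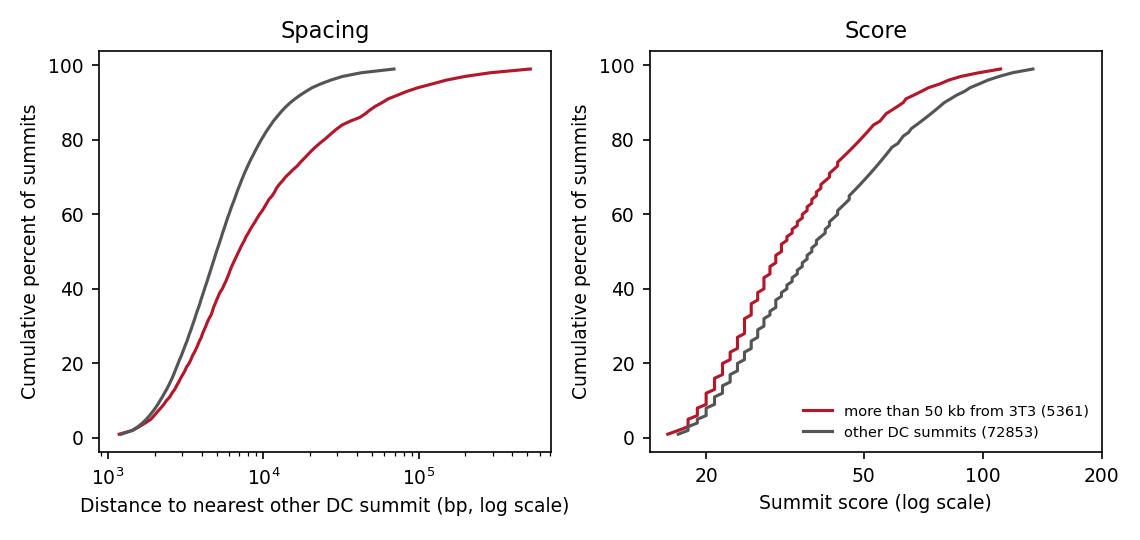
Cumulative percentage of summits (1st to 99th percentile) by distance to the nearest other dendritic cell summit (left, bp, log axis) and by score (right, log axis), for the 5361 remote summits (red) and the 72853 other summits (grey). The red spacing curve lies to the right, median 6934 against 4992 bp, and the red score curve to the left, median 31 against 37.

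Remote summits were lower than the other summits. Their median score was 31 (quartiles 24 and 44), against 37 (26 and 56). Of the remote summits 254 (4.74%, 4.18 to 5.34%) reached the 90th percentile score of 79, against 10.8% (10.6 to 11.03%) of the others and 10.4% of all autosomal summits, ties at 79 included. The lower ends nearly coincided, with 10th percentiles of 20 and 21, and the upper ends did not, with 90th percentiles of 63 and 80. The median was the lower one on all 19 autosomes, at 29 to 33 for remote summits.

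Read the other way, the share of summits that were remote was smaller at higher scores. It was 9.59% (8.91 to 10.3%) for scores of 13 to 20, 8.60% (8.01 to 9.23%) for 27 to 30, 6.01% (5.51 to 6.54%) for 42 to 49 and 3.13% (2.76 to 3.53%) for 79 and above. The second bin, scores of 21 to 23, was an exception at 8.25% (7.63 to 8.91%), under the 9.23% (8.57 to 9.92%) of scores from 24 to 26. Among the 1000 highest autosomal dendritic cell summits 16 were remote, and among the highest 100 there were 4.

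**Figure D4:**
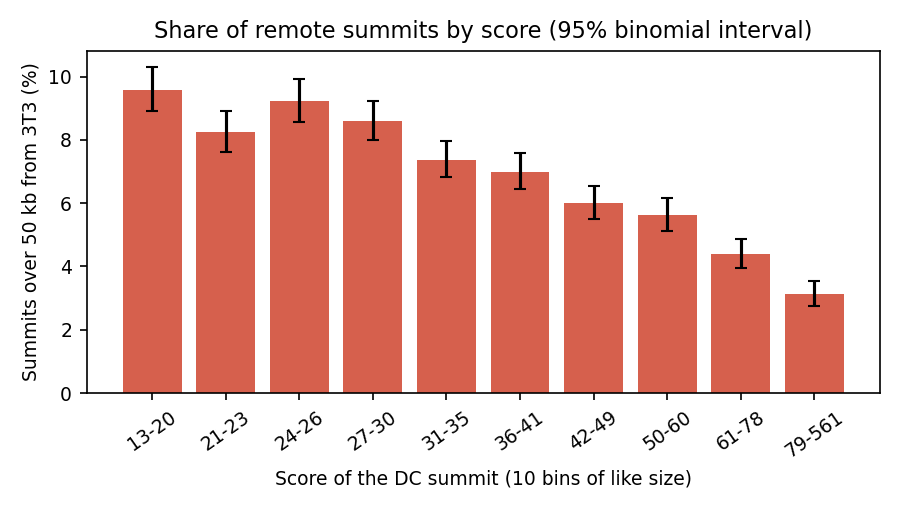
Percentage of autosomal dendritic cell summits lying more than 50 kb from 3T3, in 10 bins of the score, with exact binomial 95% intervals. The share is 9.59% in the lowest bin and 3.13% in the highest, with one step upward from the bin of 21 to 23 to that of 24 to 26.

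The score was also lower with distance within the remote set, though by little. Medians were 40 within 1 kb of a 3T3 summit, 37, 34 and 33 in the next classes out to 50 kb, then 31 at 50 to 100 kb, 31 at 100 to 200 kb, 30 at 200 to 500 kb and 29 beyond. The share at or above 79 was 5.06% (4.22 to 6.01%), 5.36% (4.28 to 6.61%), 4.38% (3.16 to 5.89%) and 1.87% (0.859 to 3.52%) in the 4 remote classes. The first 3 of these intervals overlap, and the last lies under the first and second.

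Distance to the nearest neighbour was set beside score, as lone summits were low in both sets. In all 6 classes of distance to the nearest dendritic cell summit, the remote summits had the lower median. The medians differed most where the neighbour was 5 to 10 kb away, 34 for remote summits against 43 for the others, with 9.15% (7.64 to 10.8%) against 16.6% (16.1 to 17.05%) at or above 79. The shares at or above 79 differed most with a neighbour 10 to 20 kb away, 5.73% (4.24 to 7.55%) against 14.5% (13.8 to 15.2%), where the medians were 32 and 36. With a neighbour 2 to 5 kb away the medians were 33 and 37, and 4.06% (3.16 to 5.12%) against 8.20% (7.90 to 8.51%) reached 79. With none within 50 kb they were 26 and 27, and the shares of 1.12% (0.453 to 2.30%) and 1.57% (0.932 to 2.47%) had overlapping intervals. Weighted to the neighbour classes of the remote summits, 9.54% of the others would reach 79, against the 4.74% of remote summits. This weighting takes the nearest neighbour only, and the number of summits within 100 kb still differed (medians of 9 and 16 over the whole sets). With shifted lists, 8.24 to 10.4% of remote summits reached 79, and their median was 34 to 36.

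The highest remote summit stood on chromosome 9 at 45089604. It scored 269 and ranked 11th among all autosomal dendritic cell summits. It lay 315153 bp from the nearest 3T3 summit and 16711 bp from its nearest neighbour. Another of the 10 highest was in the same stretch, at 45058354, with a score of 141. Chromosome 10 had 2 of the 10, at 114608120 with a score of 202 and at 51241008 with a score of 179. The former lay 62722 bp from 3T3 in a stretch of 7 neighbours within 100 kb, the latter 365296 bp from 3T3 in a chain of 5.

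Of the rest, the summit on chromosome 12 at 103603978 scored 197 and that on chromosome 4 at 3554792 scored 148, both close to the rule's limit at 50922 and 51651 bp. Those on chromosome 14 at 33914248 (score 174, 81894 bp), chromosome 7 at 51177547 (165, 115198 bp), chromosome 5 at 43440695 (142, 186372 bp) and chromosome 1 at 9867538 (139, 64231 bp) were farther off. None of the 10 stood alone: each had between 7 and 20 other dendritic cell summits within 100 kb.

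Remote summits were spread unevenly over the chromosomes. Chromosome 12 held 415 of them (7.74%, 7.04 to 8.49%) against 3.99% (3.84 to 4.13%) of the other summits, a log2 ratio of 0.96. Of these 415, 87 lay in the fullest stretch, between 114439937 and 117287891. The values of chromosome 12 without that stretch were not computed. Chromosome 1 held the most, 568 (10.6%, 9.78 to 11.5%) against 6.49% (6.31 to 6.67%), a log2 ratio of 0.71, and chromosome 14 followed at 0.54. The lowest ratios were -0.83 on chromosome 11, with 218 remote summits, -0.82 on chromosome 8, with 148, and -0.72 on chromosome 19, with 115. Put as a share of each chromosome's own dendritic cell summits, 12.5% (11.4 to 13.7%) were remote on chromosome 12 and 3.98% (3.47 to 4.53%) on chromosome 11, against 6.85% overall.

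How much of each chromosome was remote from 3T3 summits was set beside these shares. On chromosome 12, 52.4% of the span was more than 50 kb from a 3T3 summit, at 20.8 3T3 summits per Mb, and on chromosome 11 it was 23.9%, at 50.4 per Mb. Other chromosomes did not keep that order. On chromosome 13, 27.1% of the span was remote and 7.17% of the dendritic cell summits were (6.39 to 8.01%). On chromosome 5 more of the span was remote, 43.2%, and fewer of the summits, 5.88% (5.23 to 6.59%). Per Mb of remote territory the order was another one. Chromosome 13 was highest at 9.06 (8.05 to 10.2), followed by chromosome 9 at 8.29 (7.45 to 9.21) and chromosome 11 at 7.69 (6.70 to 8.78). Chromosome 12 stood at 6.71 (6.08 to 7.39), and chromosome 8 was lowest at 3.21 (2.71 to 3.77). Chromosome 8 was thus low on both measures, whereas chromosome 11 was low in share and high in density.

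**Figure D5:**
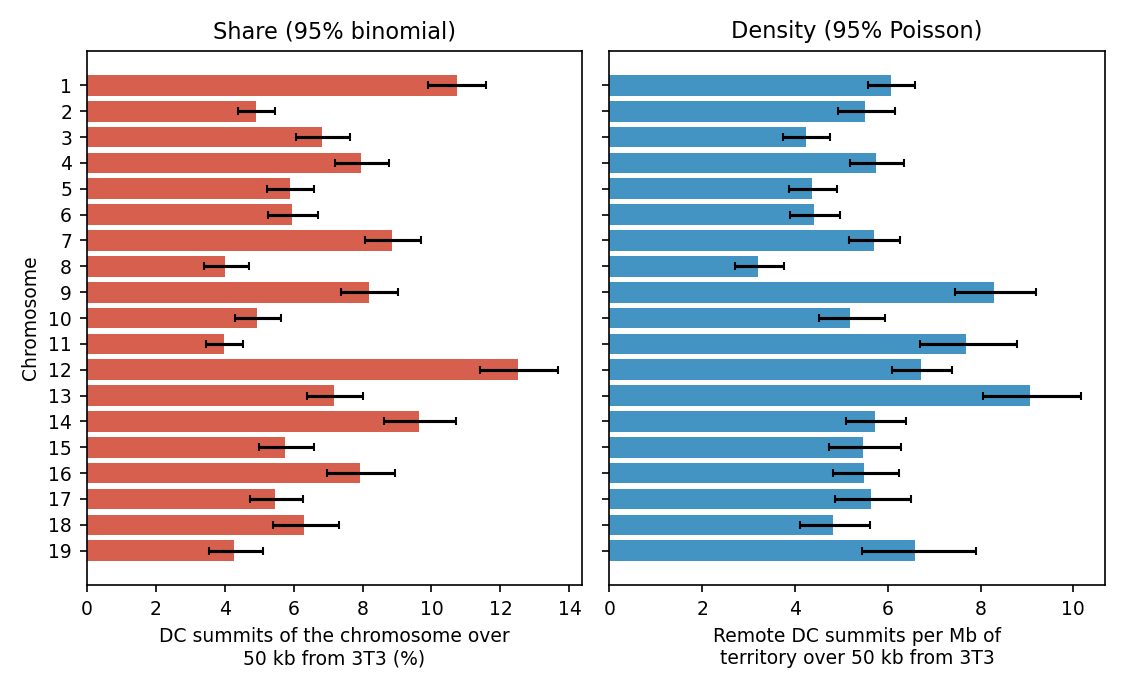
Left, percentage of each autosome's dendritic cell (DC) summits that lie more than 50 kb from 3T3 (binomial 95% intervals); right, remote summits per Mb of territory more than 50 kb from 3T3 (Poisson 95% intervals). Chromosome 12 is highest on the left at 12.5%, chromosome 13 on the right at 9.06 per Mb, and chromosome 8 is low in both.

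Along the chromosomes, pooled over the autosomes, a larger share of dendritic cell summits was remote at the starting end. In the mouse this is the end near the centromere. With each span divided into 10 equal segments, 10.6% (9.83 to 11.3%) of the dendritic cell summits were remote in the first, against 5.71 to 7.72% in each of the rest and 5.81% (5.36 to 6.30%) in the last. That first segment held 13.1% (12.2 to 14.0%) of the remote summits and 8.14% (7.94 to 8.34%) of the others.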

How the data were processed

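H3K4me1 ChIP-seq was deposited for unstimulated dendritic cells and 3T3 cells, 1 library each, as single reads of 36 bp per the labels' protocols. Per the submitters' processing notes, Bowtie aligned the reads to mm9 and MACS 1.4 called the summits. A p threshold of 1e-04, a shift of 150 bp and neither a fragment model nor a local lambda were set, per the file headers. The use of input in calling is not stated in these sources. For every summit the authors deposited a score, taken here as the signal height at the summit; depth is not given, and scores were never compared between lists. Calling without a local background can list summits at stretches with many reads of any origin.

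Distances, chains, 3T3-free stretches and territory were computed with pandas 2.3.3, numpy 2.4.6 and scipy 1.17.1 in Python 3.11.15, and drawn with matplotlib 3.10.9. Territory ran from the first to the last summit of either list on each chromosome. Shares carry exact Clopper-Pearson and counts exact Poisson 95% intervals. With 1 library per cell type there was no test and no p-value. Shifted lists wrapped around within the territory span. The computation was tested on simulated lists. Named are the 10 stretches with the most members, the 10 highest and 5 farthest members, the 5 largest chains, the 5 longest stretches and 3 summits on each side of the threshold. Members and lists were chosen with earlier results of these data known. The comparison of rim and interior, the crowded stretches, the bordering 3T3 summits, the bins of score, the comparison of chain distances with shifted lists and the weighting by crowding were chosen after seeing the data. Alternatives were other distances, score minima, merging, and omission of chromosomes. Positions are 1-based in mm9. No mm9 annotation or sequence was used, so no summit has a gene, exon or motif, and the loci named come from general knowledge.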

Additional observations from a re-analysis of the deposited data

Results flagged for a closer look

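The X chromosome was outside the set but carried summits of the same kind: 310 of its 1578 dendritic cell summits (19.6%, exact binomial 95% interval 17.7 to 21.7%) lay more than 50 kb from a 3T3 summit. A count of 0 would have allowed up to 0.190%, taken as 3 divided by the 1578 summits and not from the exact interval. Their median score was 26, against 28 for the other X summits, and their nearest dendritic cell neighbour lay at a median of 11516 bp. The autosomal share was 6.85%. These shares take no account of how much of each span was remote from 3T3. Per Mb of remote territory, autosomes and X together held 5.29 remote summits, against 5.63 for the autosomes alone. X was thus higher in share and lower in density, since adding it lowered the pooled value. That pooled value is mostly autosomal, and the density of X alone was not computed.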

How the results depend on the processing

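Under all 25 settings that could change these measures, remote summits had the lower median score, the wider median spacing, the lower density and the lower share of high scores, and in the 24 of them that kept chromosome 12 they had the higher share on it. Most of these settings left out a single chromosome and so kept most of the list. No setting left out the fullest stretch of chromosome 12. Of 111 recomputed values, 82 stayed within the counting interval, and most of those 82 came from leaving out a chromosome. With another remote distance or a score minimum, most values moved outside it. With remote meaning beyond 20 kb, 15.3% of summits were remote, at 9.48 per Mb, with 64.2% near a neighbour and 5.94% at high scores; beyond 100 kb these were 3.77%, 3.90 per Mb and 58.5%, and 12.2% were in chains of 5 or more. Keeping 3T3 summits at or above the median score gave 16.8%, 10.5 per Mb, 67.7%, 5.41% and 18.7% in chains. Keeping dendritic cell summits at or above the median gave 5.23%, 2.20 per Mb, 42.3%, 5.67% and 2.29%. The 90th percentile was taken anew on that list, so this 5.67% does not refer to the score of 79. Adding X gave 7.11% remote. Chains at 5 and 20 kb held 1.31 and 33.8%, so the chain share rests on its distance; neighbours within 5 and 20 kb were found for 37.0 and 76.8%, and 15.0% of remote summits passed the 75th percentile. Remote shares were 6.57, 7.03, 7.07 and 6.60% without chromosomes 1, 2, 11 and 12, and chromosome 12 held 8.66% without chromosome 1. Merging summits within 1 kb moved no value outside its interval. No paired analysis was possible because each cell type is 1 library, and for the same reason no replicate could be left out. Depth is unknown, so uncalled weak 3T3 summits limit every count here.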
